A study of Mus musculus with 15 samples.

Results

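RecQ helicases are ATP-driven enzymes that unwind DNA in the 3′ to 5′ direction, and mammals have 5 of them. *Blm* and *Wrn* are the genes of Bloom and Werner syndromes, *Recql4* that of Rothmund-Thomson syndrome, and *Recql* (the mouse *RECQ1* gene) and *Recql5* encode relatives that act at replication forks and on transcribed DNA. The proteins share a helicase core with a Walker A motif, which binds ATP, and a DExH box followed by a loop rich in aromatic residues, which couples ATP hydrolysis to DNA unwinding. In dividing cells such as embryonic stem cells they are known for restarting stalled forks, resolving recombination intermediates and keeping sister chromatids from exchanging strands. The mRNAs of these 5 helicases, out of 21727 transcripts in the table, were followed here through ribosome profiling, which sequences the mRNA fragments that ribosomes protect from nuclease (ribosome-protected fragments, RPFs). *Recql* was chosen by its measured difference in IP over total RPFs between both tagged lines in these data, and its relatives by homology. The values of *Recql* in that comparison, and the parts that make it up, are therefore a description without a test, while the relatives were tested. All 5 passed the filter on low counts and are among 10085 transcripts tested.

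The cells were E14Tg2a.4 mouse embryonic stem cells (mESCs) cultured on gelatin with serum and leukemia inhibitory factor. *Rps27-FLAG* cells (genotype eS27-FLAG in the labels) carry a homozygous 3xFLAG tag at the C-terminus of the endogenous small-subunit ribosomal protein Rps27, *Rps27l-FLAG* cells (eS27L-FLAG) carry it on its paralog Rps27l, and WT cells carry no tag. Each line was sampled as 3 clones that were selected independently. All cells received cycloheximide before lysis, RPFs were taken from all ribosomes (total, 9 libraries) or, in the tagged lines, from ribosomes bound by anti-FLAG beads (IP, 6 libraries), and the fragments of each replicate number (1, 2 or 3) were pooled for rRNA depletion, reverse transcription and PCR, so that a replicate number stands for 1 library pool. The study asked whether ribosomes with one or the other paralog sit on different mRNAs. There was no IP from untagged cells here, so that fragments retained by the beads without a tag were not measured. The 15 libraries hold between 3972152 and 8064166 counts, and the IP libraries (3972152 to 6673935) are shallower than most total libraries (6313827 to 8064166). All 8 embryonic stem cell markers examined exceeded 2 CPM (counts scaled to the size of the library) in every library. Summed endoderm markers lay between 6.61 and 14.8 CPM in the *Rps27l-FLAG* total libraries and between 2.65 and 5.06 CPM in the *Rps27-FLAG* total libraries, with *Afp* at 0 in 11 libraries. In the WT total libraries the endoderm sums lay between 2.63 and 6.77 CPM, which overlaps both tagged lines. Summed markers of epiblast exit and mesoderm leaned the other way, with overlap. They lay between 7.81 and 11.4 CPM in *Rps27-FLAG*, 4.41 and 9.26 in *Rps27l-FLAG* and 4.94 and 7.88 in WT total libraries. Summed fibroblast or feeder markers lay between 8.94 and 34.6 CPM over the 15 libraries. Whether such low levels come from other cells, and their part in the differences between the lines, was not tested. In bulk samples fewer cells of a type and less RNA per cell cannot be told apart.

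The genes lie on 5 chromosomes of GRCm38, all on the minus strand. *Recql* (ENSMUST00000032370, chr6:142350342-142387036, 16 exons) has the shortest coding sequence, 1896 nt with the stop codon and 48.0% GC. *Recql4* (ENSMUST00000036852, chr15:76703553-76710533, 22 exons) has 3651 nt and the highest GC content, 57.9%. *Recql5* (ENSMUST00000021097, chr11:115892595-115933477, 19 exons) has 2949 nt, *Blm* (ENSMUST00000081314, chr7:80454993-80535119, 22 exons) has 4251 nt and *Wrn* (ENSMUST00000033991, chr8:33234384-33385527, 34 exons) has 4206 nt. All 5 are longer than the median coding sequence of the tested transcripts, 1443 nt. Length is given because IP over total ratios fell with it in both lines.

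The coding DNA of the DExH box and the loop after it is shown because it is the part of the helicase core by which the family is recognised and because it shows how far the members can be told apart by sequence. The sequences come from the GENCODE M21 transcripts on GRCm38, are written 5′ to 3′ on the coding strand, and have the DExH codons in capitals.
Recql: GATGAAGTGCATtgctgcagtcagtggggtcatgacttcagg
Recql4: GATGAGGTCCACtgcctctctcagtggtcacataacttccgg
Recql5: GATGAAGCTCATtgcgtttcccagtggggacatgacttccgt
Blm: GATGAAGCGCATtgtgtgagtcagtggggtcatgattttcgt
Wrn: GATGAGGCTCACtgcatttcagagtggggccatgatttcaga
These 42 bases are codons 219 to 232 of *Recql* (chr6:142372820-142372861), 627 to 640 of *Recql4* (chr15:76706441-76706482), 157 to 170 of *Recql5* (chr11:115928229-115928270) and 632 to 645 of *Wrn* (chr8:33305699-33305740), each within 1 exon, and codons 803 to 816 of *Blm*, where they cross an exon junction (chr7:80494233-80494456). *Recql* shares 33 of the 42 bases with *Blm*, 31 with *Recql5*, 30 with *Recql4* and 28 with *Wrn*. Fragments of the members can still be told apart by sequence. Of all windows of 28 nt in the coding sequences, none of *Recql* (of 1809), *Recql4* (of 3564), *Recql5* (of 2862) or *Wrn* (of 4119) occurs in another transcript of the table, and 5 of 4164 windows of *Blm* do.

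Levels in WT cells were compared per length, as normalized CPM per kb of counted coding sequence in the total libraries. *Blm*, the helicase of the complex that dissolves double Holliday junctions, had the highest density, 61.3 ± 2.85 CPM per kb (SD, n = 3), above 71.3% of the tested transcripts. *Recql* followed with 29.3 ± 3.64 CPM per kb, above 53.5% of them. The remaining members had similar low densities, 8.41 ± 0.867 CPM per kb for *Recql5*, 7.84 ± 1.21 for *Recql4* and 7.69 ± 0.393 for *Wrn*. The ranges of the 3 WT clones of *Blm* (59.4 to 64.6) and *Recql* (25.2 to 31.8) overlapped neither each other nor those of the other members, whereas those of *Recql5*, *Recql4* and *Wrn* overlapped, so that the latter are not ordered. Of all fragments on RecQ coding sequences *Blm* took 65.0% ± 1.27 in WT cells and *Recql* 13.6% ± 1.26.

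**Figure D1:**
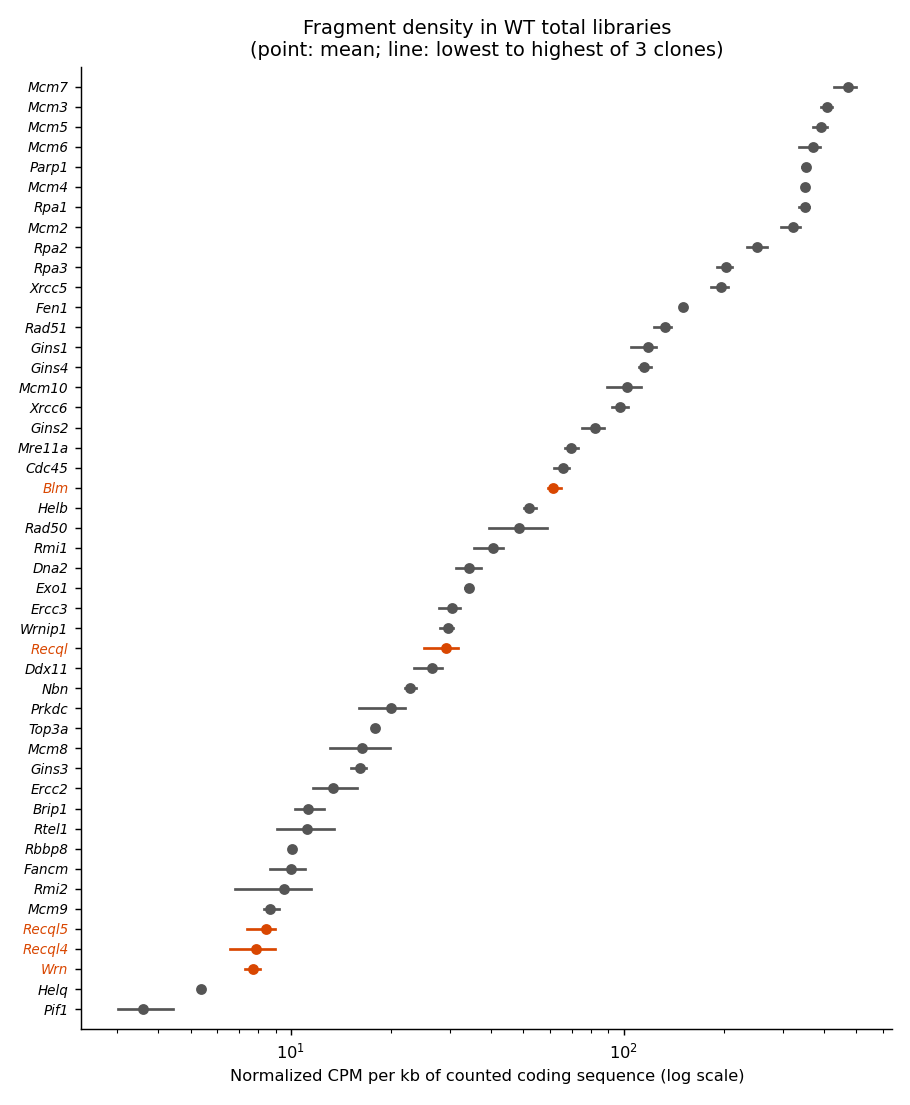
Fragment density (normalized CPM per kb of counted coding sequence, log axis) of the 5 RecQ mRNAs (orange) and of 42 other mRNAs (grey) in the 3 WT total libraries. The grey mRNAs encode other repair helicases or proteins that work beside RecQ helicases. Points are means and lines span the lowest to the highest clone. *Blm* at 61.3 and *Recql* at 29.3 lie in the middle of the range, and *Recql5*, *Recql4* and *Wrn* lie near its lower end.

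Among proteins that work with these helicases, the Mcm2 to Mcm7 subunits of the replicative helicase and the single-strand DNA binding protein RPA had far higher densities. The other subunits of that helicase lay lower, from 16.1 CPM per kb for *Gins3* to 118 for *Gins1*, with *Cdc45* at 65.5. *Mcm7* had a mean density of 473 CPM per kb, *Rpa1* 350 and *Parp1*, the sensor of DNA breaks that binds *Wrn* protein, 352. The partners of *Blm* in dissolution had lower densities than *Blm* itself, with means of 40.6 CPM per kb for *Rmi1*, 17.9 for *Top3a* and 9.55 for *Rmi2*, the last from only 20 to 32 counts a library.

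*Recql* had normalized levels of 54.3, 63.5 and 59.7 CPM in the *Rps27-FLAG* total libraries of replicates 1, 2 and 3 (425, 447 and 363 counts). The IP libraries of the same clones had 37.5, 50.9 and 46.3 CPM (260, 281 and 201 counts). Every IP library of this line lay below every total library, and the clone lowest in one fraction was lowest in the other.

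In *Rps27l-FLAG* cells the total libraries had 48.2, 45.5 and 47.3 CPM of *Recql* (370, 369 and 299 counts), and the IP libraries had 49.6, 55.1 and 48.3 CPM (280, 245 and 189 counts). Here the IP libraries all lay above the total libraries, by a small margin in replicates 1 and 3. The WT total libraries, at 46.2, 58.5 and 56.9 CPM, spanned both tagged lines: they overlapped the *Rps27-FLAG* and the *Rps27l-FLAG* total libraries, which did not overlap each other.

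**Figure D2:**
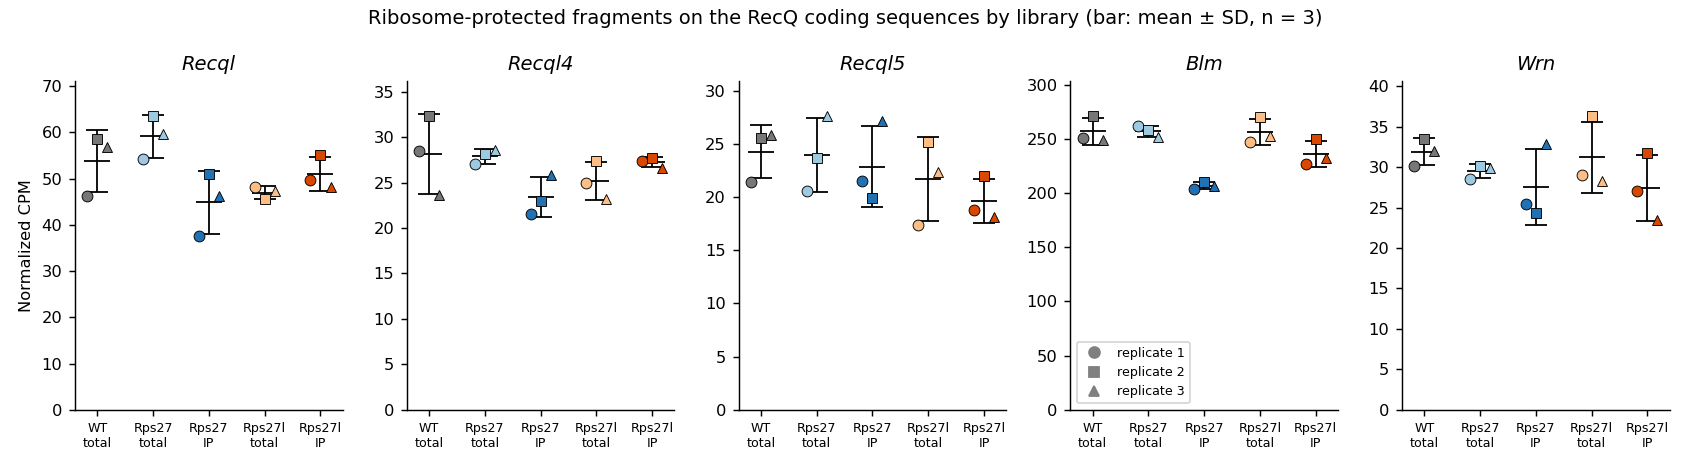
Normalized CPM of the 5 RecQ mRNAs in each library, by line and fraction. Symbols mark the replicate number, and bars are the mean ± SD of 3 clones. *Recql* IP libraries lie below the total libraries in *Rps27-FLAG* (mean 44.9 against 59.2 CPM) and slightly above them in *Rps27l-FLAG* (51.0 against 47.0 CPM).

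As log2 ratios of IP over total, the clones of *Rps27-FLAG* had −0.53, −0.32 and −0.37 for *Recql*, and those of *Rps27l-FLAG* 0.04, 0.28 and 0.03. The lines did not overlap, and the counting error of 1 such ratio was 0.12. Within library pools the *Rps27l-FLAG* clone exceeded the *Rps27-FLAG* clone by 0.57, 0.59 and 0.40, so that the difference was present in all 3 pools. In the fit over 12 libraries it was 0.53 (SE 0.096, 95% interval 0.34 to 0.72), rank 90 from the top among 10085 transcripts. The interval, the rank and the gap between the clones take no account of the choice of *Recql* by this comparison, and do not test it. Of all transcripts 0.466% were called higher in *Rps27l-FLAG* at an adjusted p under 0.05 with an absolute log2 fold change over 0.25, a share from which nothing is read for *Recql*, since this comparison chose it. The difference was 0.52 after the trend with coding length was removed.

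Both fractions made up the *Recql* difference. Between the means of the log2 levels, the IP libraries of *Rps27l-FLAG* were higher than those of *Rps27-FLAG* by 0.19, with SDs between clones of 0.10 and 0.23, and the ranges overlapped. The total libraries of *Rps27l-FLAG* were lower by 0.33 on the log2 scale, with SDs of 0.04 and 0.11, and the ranges did not overlap. For levels, here and for the other members, the share of all transcripts with ranges apart was not counted. Ranges that lie apart are thus a description. By these means the total RPFs held the larger part of the *Recql* difference. The order of both parts was not tested, and the SD of 0.23 between the *Rps27-FLAG* IP libraries exceeds the IP part of 0.19.

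*Blm* gave the most fragments and the most precise values. The *Rps27-FLAG* total libraries had 262, 258 and 252 CPM, and the IP libraries 204, 210 and 207 CPM. The *Rps27l-FLAG* total libraries had 247, 270 and 253 CPM, and the IP libraries 227, 250 and 232 CPM. IP libraries were thus lower than the total library of their own clone in all 6 tagged clones, and in *Rps27-FLAG* the fractions did not overlap.

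The log2 ratio of IP over total of *Blm* was −0.36, −0.29 and −0.28 in *Rps27-FLAG* and −0.12, −0.11 and −0.12 in *Rps27l-FLAG*. Every clone was negative and the lines did not overlap. The difference between the lines was 0.20 (SE 0.047, 95% interval 0.11 to 0.29, edgeR quasi-likelihood test, adjusted p = 0.00664). This passes the threshold on the adjusted p, as 1.35% of the tested transcripts did in this direction, but lies under the limit of 0.25 on the fold change that the study set, so that *Blm* was not called by both limits. Within pools the difference was 0.24, 0.18 and 0.16. The adjusted p rose over the threshold without *Rps27-FLAG* replicate 1 (0.0832), after removal of the length trend (difference 0.15, adjusted p = 0.0897) and without the clone as a block (adjusted p = 1.00). The fit without the clone as a block called no transcript at all.

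Unlike for *Recql*, the *Blm* difference lay in the IP libraries. The IP libraries of *Rps27l-FLAG* exceeded those of *Rps27-FLAG* by 0.19 on the log2 scale (SDs 0.07 and 0.02, ranges apart), and the total libraries differed by −0.01 (SDs 0.07 and 0.03, ranges overlapping).

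*Recql4* encodes the member that is also required for the start of DNA replication, where it acts with Mcm10 on the loaded helicase. Its *Rps27-FLAG* total libraries had 27.0, 28.1 and 28.6 CPM and its IP libraries 21.5, 23.0 and 25.8 CPM. In *Rps27l-FLAG* the total libraries had 24.9, 27.4 and 23.2 CPM, and the IP libraries 27.4, 27.7 and 26.6 CPM. The ratios were −0.32, −0.29 and −0.15 in *Rps27-FLAG* and 0.14, 0.02 and 0.20 in *Rps27l-FLAG*. The lines were apart, on opposite sides of 0 as for *Recql*. With the trend with coding length removed, the *Recql4* ratios were −0.09, −0.04 and 0.10 in *Rps27-FLAG* and 0.33, 0.22 and 0.40 in *Rps27l-FLAG*. The lines were still apart, but the *Rps27-FLAG* clones lay on both sides of 0. Those of *Recql* stayed below 0 (−0.45, −0.22 and −0.27).

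The *Recql4* difference between the lines was 0.37 (SE 0.13, 95% interval 0.11 to 0.64), rank 281 of 10085, and did not pass the test across all transcripts (edgeR quasi-likelihood test, adjusted p = 0.156). Within pools it was 0.47, 0.31 and 0.34. With 104 to 243 counts a library, the counting error of 1 clone's ratio was 0.16. IP libraries of *Rps27l-FLAG* were higher than those of *Rps27-FLAG* by 0.22 with ranges apart, and total libraries lower by 0.15 with ranges overlapping.

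*Recql5*, known for restraining recombination and for binding RNA polymerase II, had overlapping ratios in both lines. Its levels in total and IP libraries ranged from 20.6 to 27.6 and from 19.9 to 27.2 CPM in *Rps27-FLAG*, and from 17.4 to 25.2 and from 18.1 to 22.0 CPM in *Rps27l-FLAG*, on 71 to 204 counts a library over all 15 libraries. The ratios were 0.07, −0.25 and −0.02 in *Rps27-FLAG* and 0.11, −0.19 and −0.30 in *Rps27l-FLAG*. The lines overlapped, and within pools the difference was 0.04, 0.06 and −0.28. The fitted difference was −0.06 (95% interval −0.35 to 0.23, adjusted p = 0.929 in edgeR).

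*Wrn*, which unlike its relatives also carries an exonuclease domain, had total levels of 28.5, 30.1 and 29.9 CPM and IP levels of 25.4, 24.3 and 32.9 CPM in *Rps27-FLAG*. In *Rps27l-FLAG* it had 29.0, 36.3 and 28.3 CPM in total and 27.1, 31.7 and 23.5 CPM in IP libraries. The ratios were −0.16, −0.31 and 0.14 in *Rps27-FLAG* and −0.10, −0.19 and −0.26 in *Rps27l-FLAG*. One clone, *Rps27-FLAG* replicate 3, stood above all others. The difference between the lines was −0.06 (95% interval −0.31 to 0.20, adjusted p = 0.917 in edgeR), with 0.06, 0.12 and −0.40 within pools.

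**Figure D3:**
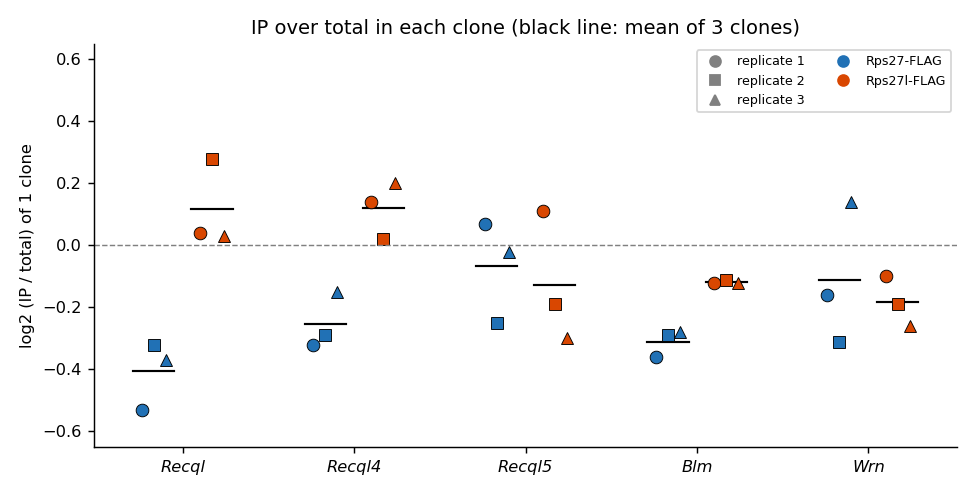
log2 ratio of IP over total RPFs of each tagged clone for the 5 RecQ mRNAs, with *Rps27-FLAG* clones in blue and *Rps27l-FLAG* clones in orange. Symbols mark the replicate number and black lines are means of 3 clones. The lines are apart for *Recql*, *Recql4* and *Blm*, and overlap for *Recql5* and *Wrn*.

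The *Recql* difference between the lines was therefore shared in direction by 2 of its 4 relatives, *Recql4* and *Blm*, whose *Rps27l-FLAG* clones all lay above the *Rps27-FLAG* clones, as did those of 9.08% of all tested transcripts. For *Recql5* and *Wrn* the clones of both lines overlapped. None of the 4 relatives was called by both limits, against 0.565% of all transcripts, and *Blm* passed the adjusted p alone.

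**Figure D4:**
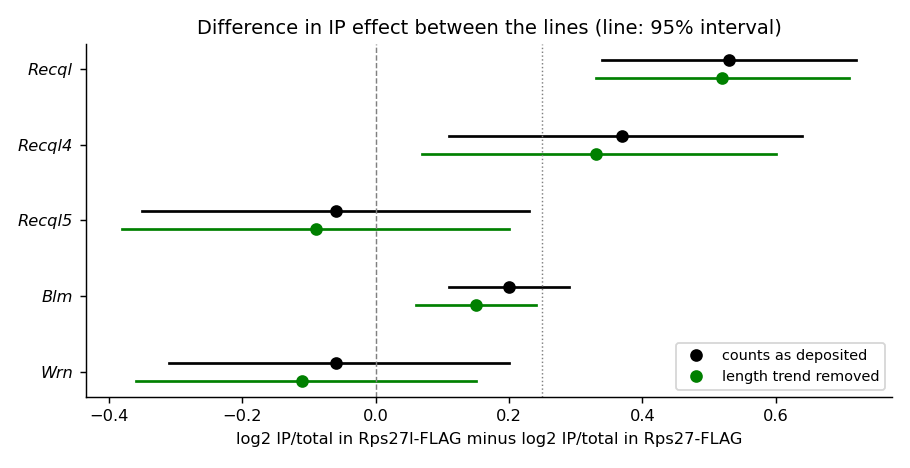
Difference between the lines in the log2 ratio of IP over total, with 95% intervals, from the counts as deposited (black) and after the trend with coding length was removed (green). The dashed line marks 0 and the dotted line the limit of 0.25. The point of *Recql* lies at 0.53 and 0.52, that of *Blm* at 0.20 and 0.15, and the intervals of *Recql5* and *Wrn* span 0. The intervals of *Recql* take no account of its choice by this comparison.

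**Figure D5:**
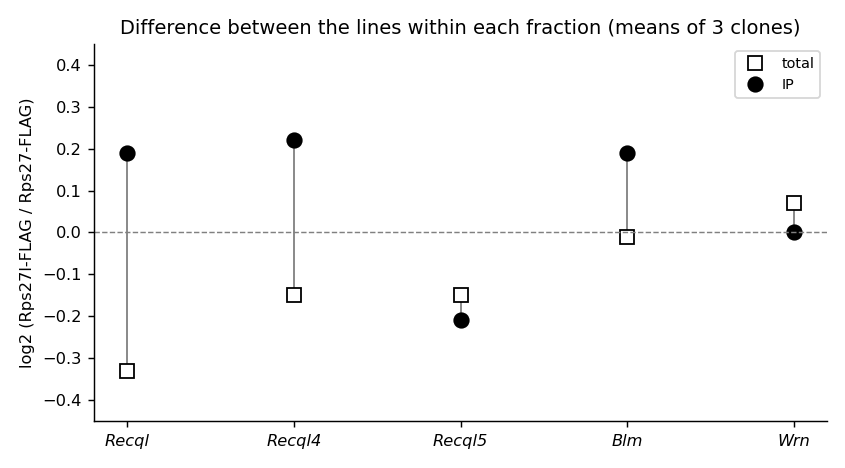
Difference between *Rps27l-FLAG* and *Rps27-FLAG* in the mean log2 level of each RecQ mRNA over 3 clones, within the total libraries (open squares) and within the IP libraries (filled circles). For *Recql* the total libraries lie at −0.33 and the IP libraries at 0.19. For *Blm* the IP libraries alone lie away from 0.

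Within *Rps27-FLAG*, IP was compared with total RPFs over all transcripts. *Blm* fell by 0.31 on the log2 scale (SE 0.054, edgeR quasi-likelihood test, adjusted p = 0.0148), and was 1 of 4 relatives called, where 5.67% of all tested transcripts were called and 5.34% called lower. *Recql4* had −0.26 (SE 0.11, adjusted p = 0.223), *Recql5* −0.07 and *Wrn* −0.11 (adjusted p = 0.847 and 0.691). With the clone as a block *Recql4* also passed (−0.26, adjusted p = 0.0166), and *Blm* had an adjusted p of 3.36e-19, against 41.2% of all transcripts called. The *Blm* call was lost without *Rps27-FLAG* replicate 2 (−0.32, adjusted p = 0.323) or replicate 3 (−0.33, adjusted p = 0.251). No transcript at all was called in either of these fits.

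In *Rps27l-FLAG* none of the 4 relatives was called, while 3.10% of all tested transcripts were. The log2 fold changes of IP over total were 0.11 for *Recql4*, −0.14 for *Recql5*, −0.12 for *Blm* and −0.19 for *Wrn*, with adjusted p in edgeR between 0.402 and 0.748. With the clone as a block *Blm* passed (−0.12, SE 0.033, adjusted p = 0.00387), where 31.0% of all transcripts did.

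Across all tested transcripts the log2 fold change of IP over total correlated with coding length with Spearman rho values of −0.562 (*Rps27-FLAG*) and −0.527 (*Rps27l-FLAG*), as a description over transcripts that share the libraries. With this trend removed and the clone as a block, *Blm* had −0.04 (adjusted p = 0.427) in *Rps27-FLAG* and 0.11 (adjusted p = 0.0102) in *Rps27l-FLAG*, so that its sign in *Rps27l-FLAG* turned. *Recql4* had −0.02 (adjusted p = 0.896) and 0.31 (adjusted p = 0.0102), where this fit called 31.4% and 22.7% of all transcripts. Against transcripts of like length, the lower IP level of *Blm* in *Rps27-FLAG* did not pass the test. *Recql*, the shortest of the 5, moved least, from mean ratios of −0.41 and 0.12 to −0.32 and 0.20.

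Total RPFs told how far the lines differed without any pull-down. In all 3 pairwise comparisons none of the 4 relatives was called, nor any of the 10085 transcripts (background 0% by edgeR at an adjusted p under 0.05, and none by DESeq2 or by voom with limma). An unadjusted p under 0.05 was reached by 294 transcripts for *Rps27-FLAG* against WT, by 574 for *Rps27l-FLAG* against WT and by 580 between the tagged lines. *Blm* had 251, 271 and 249 CPM in the WT libraries, and the 95% intervals of its log2 fold change ran from −0.13 to 0.13 for each tagged line against WT, the narrowest of the members. *Recql4* and *Recql5* had log2 fold changes against WT of −0.02 (*Rps27-FLAG*) and −0.16 (*Rps27l-FLAG*), all with intervals that span 0. For *Recql4* the WT libraries had 28.5, 32.3 and 23.6 CPM, a wider range than either tagged line. *Wrn* had −0.11 and −0.03, and its *Rps27-FLAG* total libraries (28.5 to 30.1 CPM) lay just under the WT libraries (30.2 to 33.5 CPM). With the library pool as a block 0.00992%, 1.43% and 1.36% of the transcripts were called in these comparisons (1, 144 and 137), none of them a relative of *Recql*.

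Summed over the family, RecQ mRNAs took 398 ± 5.42 CPM (SD, n = 3) of the total RPFs in *Rps27-FLAG*, 381 ± 20.1 in *Rps27l-FLAG* and 395 ± 22.6 in WT. The IP libraries had 326 ± 14.9 CPM in *Rps27-FLAG* and 362 ± 21.3 in *Rps27l-FLAG*. *Blm* decided these sums, with 63.6% to 67.2% of the RecQ fragments in the means of the 5 conditions. The share of *Recql* within the family was 14.9% ± 0.969 in *Rps27-FLAG* total and 12.4% ± 0.979 in *Rps27l-FLAG* total libraries, and 13.8% ± 1.70 and 14.1% ± 0.213 in the IP libraries.

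Proteins that work beside RecQ helicases, and 12 other repair helicases in a list of their own, were followed in 6 lists of 43 genes. Of these genes 42 were tested (*Hfm1*, with at most 30 counts, was not). In the comparison of IP effects 3 of the 42 were higher in *Rps27l-FLAG* at an adjusted p under 0.05 and none was lower, beside 1.35% and 0.139% of all tested transcripts. These 3 had log2 ratios of IP over total below 0 in both lines, nearer to 0 in *Rps27l-FLAG*. *Prkdc*, the catalytic subunit of DNA-dependent protein kinase, had −1.07 in *Rps27-FLAG* and −0.78 in *Rps27l-FLAG*, a difference of 0.29 (SE 0.055, adjusted p = 0.000404 in edgeR). *Rad50*, the coiled-coil subunit of the complex that begins end resection, had −0.70 and −0.43, a difference of 0.27 (SE 0.054, adjusted p = 0.000517). *Mcm3*, a subunit of the replicative helicase, had −0.30 and −0.13, a difference of 0.17 (SE 0.039, adjusted p = 0.00467), under the limit of 0.25. The median over all 42 was 0.02, beside 0.00 over all transcripts tested.

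By role, none of the 3 dissolution partners of *Blm* passed, with *Top3a* at 0.14 and *Rmi1* at −0.03 (adjusted p = 0.673 and 0.947). Of the 7 genes of end resection and strand exchange only *Rad50* passed, and its partners in the complex had −0.09 (*Mre11a*) and −0.04 (*Nbn*). None of the 3 RPA subunits and none of the 11 other repair helicases passed, the medians being 0.07 and 0.08. Of 12 genes that act with *Recql4* at the start of replication *Mcm3* alone passed, and *Mcm10* had −0.10 (adjusted p = 0.332). After removal of the length trend *Rad50* had 0.23 (adjusted p = 0.00796), *Mcm3* 0.15 (adjusted p = 0.0295) and *Prkdc*, whose coding sequence of 12387 nt is the longest of the lists, 0.17 (adjusted p = 0.0991).

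Within *Rps27-FLAG*, 7 of the 42 were lower in IP than in total RPFs and none was higher, beside 5.34% and 0.327% of all tested transcripts. This balance was not kept with the length trend removed and the clone as a block, where 10 were lower and 10 higher, beside 31.4% of all transcripts (1308 lower and 1855 higher). *Prkdc* fell by 1.07 on the log2 scale (adjusted p = 0.00128), *Fancm*, a translocase of the Fanconi pathway, by 0.96 (adjusted p = 0.00232), *Brip1*, a helicase of the same pathway, by 0.56 (adjusted p = 0.0275) and *Top3a* by 0.49 (adjusted p = 0.0151). The median of the 11 other repair helicases was −0.32, beside −0.01 over all tested transcripts, and was −0.13 beside 0.02 with the length trend removed. It was similar in *Rps27l-FLAG*, at −0.27 beside −0.03, and at −0.11 beside 0.01 with the length trend removed. In *Rps27l-FLAG* 2 of the 42 were lower and none higher, beside 2.27% and 0.833% of all transcripts. These were *Prkdc* with −0.78 (adjusted p = 0.00638) and *Fancm* with −0.67 (adjusted p = 0.0323). With the length trend removed and the clone as a block the balance turned, with 3 lower and 10 higher, beside 22.7% of all transcripts (812 lower and 1479 higher). With the clone as a block alone, 18 of the 42 passed as lower and 7 as higher for *Rps27-FLAG*, beside 41.2% of all transcripts (2308 lower and 1846 higher). For *Rps27l-FLAG* 16 passed as lower and 3 as higher, beside 31.0% of all transcripts (1919 lower and 1209 higher). All these p-values are from edgeR.

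Over the 15 libraries, the transcripts with the pattern most like *Recql* were *Eif3l* (Pearson's r = 0.880), *Cdc27* (0.864), *Zzef1* (0.813), *Ddx39* (0.805) and *Pde4d* (0.798), correlations of log2 normalized CPM that share libraries and pools and that were picked as the highest of 10085. *Eif3l* is a subunit of an initiation factor, and *Cdc27* is a subunit of the anaphase-promoting complex. None of these 5 is a RecQ helicase. *Recql4* had r = 0.562 with *Recql* and *Blm* 0.555, above 94.6% and 94.2% of the tested transcripts, while *Recql5* had 0.323 and *Wrn* 0.282. Spearman's rho was lower, 0.479 for *Recql4*, 0.379 for *Blm*, 0.279 for *Recql5* and 0.118 for *Wrn*. The 15 libraries include those of the comparison that chose *Recql*, so that these correlations are a description.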

How the data were processed

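RPFs of 15 libraries from 9 mESC clones were analysed. Per the labels and the study's methods, the authors trimmed reads with cutadapt 2.4, removed duplicates by molecular identifiers with UMI-tools 1.0.1, discarded rRNA, tRNA and snRNA reads, aligned with Bowtie2 2.3.4.3 to GRCm38 transcripts and assigned each fragment to its A site, leaving out 15 codons at the start and 5 at the end of the CDS. The deposited values are these counts per transcript, not normalized, and 0 columns were left out. Transcripts were mapped to genes with GENCODE M21 (21713 of 21727 had an entry), whereas the authors used another release.

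After removal of 13 transcripts of the mitochondrial genome, the 10085 with CPM over 2 in 14 or more of the 15 libraries were tested, with TMM factors set separately for IP and total libraries. Tests used edgeR 4.0.16 (quasi-likelihood F-test, R 4.3.3) with Benjamini-Hochberg adjustment over all tested transcripts. Total RPFs were fitted by line, IP against total by fraction within a line, and the difference of IP effects by line, clone within line and fraction within line, where a call also needed an absolute log2 change over 0.25 and *Tmod3* was set aside as in the study. The study's methods used voom and limma, run here as an alternative. Levels are CPM with TMM-scaled library sizes, 0.5 counts were added for ratios of single clones, and densities are per kb of counted CDS. The length trend was removed per library by loess (span 0.5). Intervals are 95% intervals of the fit.

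IP and total RPFs with the same line and replicate number come from 1 clone, and their deviations from the condition mean correlated with r from 0.468 to 0.790 in 6 pairs. Total libraries of the same library pool had r from −0.164 to 0.713. Libraries of a condition differed by more than sampling noise. On simulated data, 200 of 10085 transcripts were given a known difference between IP effects. With noise drawn from the spread around condition means, which leaves out the pairing of fractions by clone, 3.50% were recovered at a log2 difference of 0.5 and 59.0% at 1. This missed the 60% at a log2 difference of 1 that had been required, and the noise was then drawn from the spread around the design of the fit, which holds the clone, with 63.0% and 88.5% recovered. The recovery at 0.5 of a difference between IP effects thus depends on the spread assumed. With noise around the design of each fit, IP over total in *Rps27-FLAG* had 36.0% recovered at 0.5 and 88.5% at 1. For total RPFs between the tagged lines these were 38.0% and 87.5%. The absence of calls in total RPFs therefore does not exclude changes of 0.5.

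The members and lists were chosen with earlier results of these data known. The genes named are the 5 helicases, the 5 transcripts most correlated with *Recql*, and list members past the threshold, at most the 4 with the largest change per comparison. Partner levels, members of the lists that did not pass and markers are given as context. Alternatives were voom with limma 3.58.1, DESeq2 1.42.0, DESeq2 size factors, TMM over all libraries, CPM over 2 in at least 3 libraries, no filter, removal of the length trend, the replicate block or none, an IP effect specific to the library pool, no limit on the fold change, 2 added counts, Spearman correlation, and each clone left out. Python 3.11.15 and matplotlib 3.10.9 were used for annotation and figures.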

Additional observations from a re-analysis of the deposited data

Results flagged for a closer look

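These results were flagged because the effect of the IP differed between *Rps27-FLAG* and *Rps27l-FLAG* cells when the difference itself was tested with edgeR (adjusted p under 0.05). They are the log2 differences of *Blm* (0.20), *Rad50* (0.27), *Prkdc* (0.29) and *Mcm3* (0.17). The difference of *Recql* (0.53) is listed with them as a description, since this comparison chose it. Groups of 3 clones are too small to single out 1 library.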

How the results depend on the processing

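Of 364 values of the relatives under an alternative, 326 kept their direction and their side of the threshold and 31 turned direction. Those 326 include mean ratios with 2 added counts, which have no threshold and were judged by their SD between clones. Of the relatives only *Blm*, for IP against total in *Rps27-FLAG*, was called without an alternative. Keeping the side thus mostly meant staying uncalled. All 91 values of *Recql* moved by less than 0.14, the larger SD between clones of its log2 ratios of IP over total. The *Recql* total levels had smaller SDs, 0.11 in *Rps27-FLAG* and 0.04 in *Rps27l-FLAG*, so that this limit is lenient for total RPFs. For the difference of IP effects 57 transcripts were called, and 9 by DESeq2, 28 with the length trend removed, 0 with no replicate block (142 at an unadjusted p under 0.05) and 150 with no limit on the fold change, where *Blm* (0.20) was among them. DESeq2 gave *Blm* and *Recql4* no adjusted p in that comparison. With clones left out in turn, the *Recql5* difference lay between −0.18 and 0.01 (positive without *Rps27-FLAG* replicate 1 or *Rps27l-FLAG* replicate 3) and the *Wrn* difference between −0.15 and 0.05 (positive without *Rps27-FLAG* replicate 3).

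IP against total gave 572 calls in *Rps27-FLAG* and 313 in *Rps27l-FLAG*, and with the clone as a replicate block 4154 and 3128. The block with the length trend removed gave 3163 and 2291, turned *Recql5* to 0.13 and 0.04 and *Wrn* to 0.16 and 0.05, and turned *Blm* to 0.11 in *Rps27l-FLAG*. Leaving out clones gave 0 to 1817 calls in *Rps27-FLAG* (0 without replicate 2 or 3, 1817 without replicate 1) and *Recql5* between −0.14 and 0.01, and 0 to 319 calls in *Rps27l-FLAG* (0 without replicate 1 or 2).

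For total RPFs the library pool as a replicate block gave 1, 144 and 137 calls in place of 0 for *Rps27-FLAG* against WT, *Rps27l-FLAG* against WT and *Rps27l-FLAG* against *Rps27-FLAG*, and changed no call of a RecQ member. Leaving out clones gave 0 to 1 call in both comparisons of *Rps27l-FLAG*, 1 without *Rps27l-FLAG* replicate 2. Values near 0 turned sign. Against WT in *Rps27-FLAG*, *Blm* was −0.0022 without a filter, *Recql4* and *Recql5* were 0.02 and 0.01 with the length trend removed, and with clones left out *Recql4* lay between −0.13 and 0.10, *Recql5* between −0.13 and 0.08 and *Blm* between −0.02 and 0.04. In *Rps27l-FLAG* against WT, *Blm* was 0.02 with the length trend removed, and with clones left out *Blm* lay between −0.04 and 0.04 and *Wrn* between −0.15 and 0.03. Between the tagged lines, with clones left out, *Blm* lay between −0.04 and 0.02 and *Wrn* between −0.04 and 0.15. The Spearman correlation kept 2 of the 5 transcripts most like *Recql*. The cause of these changes was not tested. With 71 to 447 counts a library for every member but *Blm*, a log2 ratio of 1 clone carries a counting error of 0.12 to 0.18, against 0.05 for *Blm*. The edgeR p-values rest on the spread between 3 clones a line together with a spread pooled over all tested transcripts. They are therefore not a measure of the clones of 1 gene alone.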
